A study of Mus musculus with 4 samples.

Results

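The genes described here encode the sensors that detect DNA and RNA in the cytosol and the proteins that carry their signal to the transcription factors IRF3 and IRF7. They were the 10 rows, among 24421 genes counted, that carried the symbols Mb21d1 (cGAS), Tmem173 (STING), Ddx58 (RIG-I), Ifih1 (MDA5), Mavs, Tbk1, Irf3, Irf7, Trex1 and Aim2; the rule used gene symbols, and the genes were proposed with earlier results of these data known. RNA was sequenced from 4 J558 allografts, which are tumours of the mouse plasmacytoma line J558 grown under the skin of the right flank of female BALB/c mice. On day 6, 2 allografts came from mice given 0.5% methylcellulose by mouth (Vehicle-1 and Vehicle-2) and 2 from mice dosed orally with TAK-931 at 60 mg/kg daily (TAK-931-1 and TAK-931-2). TAK-931 inhibits CDC7, a kinase that fires origins of DNA replication, and the study asked whether its use in vivo is accompanied by an inflamed tumour. The mice were immunocompetent and syngeneic to the line, the study lists its mice as 4 weeks of age, and each library held RNA of the whole tumour, host cells included.

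cGAS binds double-stranded DNA in the cytosol and makes a cyclic dinucleotide that activates STING, whereas RIG-I and MDA5 bind viral or self RNA and act through MAVS on the mitochondrial surface. STING and MAVS both recruit the kinase TBK1, which phosphorylates IRF3 and IRF7, and these factors enter the nucleus and switch on type I interferon and antiviral genes. AIM2 also binds DNA but assembles an inflammasome instead, and TREX1 is an exonuclease that degrades cytosolic DNA and so keeps cGAS quiet. Several of these genes, Irf7 foremost, are themselves induced by interferon.

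The libraries held between 16487902 and 19589339 counts. The vehicle-treated libraries resembled each other (Pearson's r of 0.977 across the log2 levels of 13669 genes, which are not independent replicates), and the treated libraries did so less (0.865), with TAK-931-2 nearer to vehicle (0.95 and 0.939) than TAK-931-1 was (0.806 and 0.791). The label calls the line a B lymphocyte. Of the B cell markers, Pax5 had 0 counts in every library, while Cd79b was at 74 to 209 CPM and Ms4a1 at 13.3 to 52.7 CPM, and the plasma cell genes Jchain, Xbp1 and Sdc1 were at 241 CPM or more in each. CPM is the count relative to the TMM-scaled library total, on the usual CPM scale. Cdc7, the gene of the drug target, had 23 and 21.5 CPM in vehicle-treated and 21.3 and 21.2 CPM in TAK-931-treated allografts.

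The 10 genes fell into 2 sets by the size of their difference between the groups. Mb21d1, Ifih1, Irf7 and Trex1 were higher in both TAK-931-treated allografts than in both vehicle-treated ones, with fitted log2 fold changes between 2.14 and 3.09. Tmem173, Ddx58, Mavs, Tbk1, Irf3 and Aim2 had fitted log2 fold changes between 0.08 and 0.42. No member passed an adjusted p of 0.05 in edgeR's quasi-likelihood test, and neither did any other gene (0% of 13669 tested). An unadjusted p under 0.05 was reached by the first 4 genes, all higher, where 11.6% of all tested genes were called higher in this way and 18.1% in either direction. The groups did not overlap in 6 members, all higher in TAK-931, where 30% of all genes behaved so. With median-of-ratios scaling it was 7 members and with library size alone 8. The share of all genes under these other scalings was not computed. All 10 passed the filter on low counts, all 10 had a positive fold change (51% of all genes did), and their median log2 fold change was 0.38 against 0.02 over all genes. With 2 libraries against 2, an exact permutation test of a single gene cannot go below a two-sided p of 0.333.

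**Figure D1:**
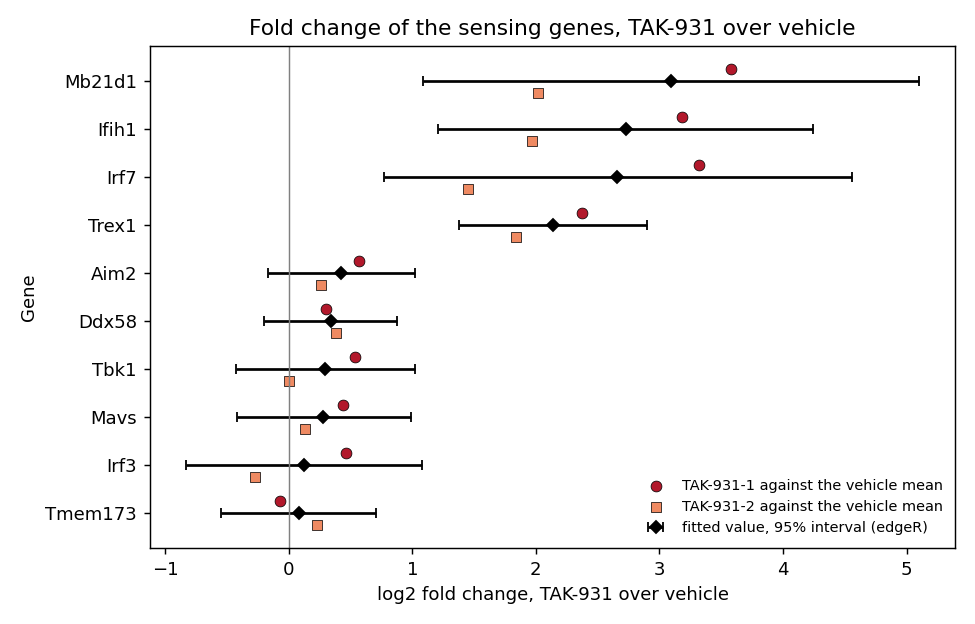
Log2 fold change (x axis) of each sensing gene (y axis). Diamonds are the fitted values from edgeR (n = 2 per group), and bars are 95% intervals derived from its test statistic. Coloured points are each TAK-931-treated library against the vehicle mean on the log2 scale with a prior count of 2. Mb21d1, Ifih1, Irf7 and Trex1 lie between 2.14 and 3.09, and the other genes between 0.08 and 0.42 with intervals that reach below 0.

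The DNA sensor cGAS was the scarcest of the 10 transcripts. Mb21d1 (chromosome 9, 78430518 to 78443237, mm10, minus strand) had 25 and 22 counts under vehicle, 342 in TAK-931-1 and 103 in the other treated library, which is 1.48, 1.32, 18 and 6.01 CPM in that order. Both treated allografts lay above both vehicle-treated ones, and TAK-931-1 lay 3-fold above TAK-931-2. If each 2 counts are 1 read pair, the vehicle values rest on 12 and 11 pairs, with exact 95% Poisson intervals of 0.735 to 2.49 and 0.658 to 2.36 CPM, against 15.4 to 20.9 and 4.53 to 7.96 CPM in the treated libraries. These intervals cover counting error only. The group means were 1.4 ± 0.116 and 12 ± 8.49 CPM (SD, n = 2), and the log2 fold change was 3.09 (SE 0.74, unadjusted p 0.0119 and adjusted p 0.275 by edgeR). Without TAK-931-1 it was 2.09.

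STING, the receptor for the product of cGAS, showed no such difference. Tmem173 (chromosome 18, 35733678 to 35740554) had 144 and 126 CPM in Vehicle-1 and Vehicle-2, 128 and 157 CPM in TAK-931-1 and TAK-931-2. The groups overlapped, and TAK-931-1 lay just above the lower vehicle value. The log2 fold change was 0.08 (SE 0.24), with a 95% interval of −0.55 to 0.71, and its sign turned without Vehicle-2 (−0.03) or without TAK-931-2 (−0.10).

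Trex1, whose product removes cytosolic DNA, differed between the groups with the least spread of the 4 higher genes. Its exons lie on chromosome 9 from 109057932 to 109059723. Its level was 18.1 and 18.5 CPM under vehicle, then 95.5 and 65.8 CPM in TAK-931-1 and TAK-931-2. The treated allografts were 5.21-fold and 3.59-fold the vehicle mean and differed 1.45-fold from each other. The means were 18.3 ± 0.266 and 80.6 ± 21 CPM (SD, n = 2), and the fitted log2 fold change was 2.14 (SE 0.28, 95% interval 1.38 to 2.90, unadjusted p 0.00117 and adjusted p 0.275 by edgeR). This was the lowest unadjusted p among the members, and the fold change was 1.84 without TAK-931-1 and 2.36 without TAK-931-2.

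AIM2, the DNA sensor of the inflammasome, was well expressed in every allograft. Aim2 (chromosome 1, 173420604 to 173466036) had 63.3 and 59.4 CPM in vehicle-treated allografts, 90.9 and 73.6 CPM in TAK-931-1 and TAK-931-2. The groups did not overlap, but the log2 fold change was 0.42 (SE 0.22) with a 95% interval of −0.17 to 1.02.

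The related RNA sensors RIG-I and MDA5 differed from each other both in level and in difference between the groups. Ddx58 (RIG-I, chromosome 4, 40203777 to 40239825) had 82.4 and 75 CPM in vehicle-treated allografts, 96.6 and 103 CPM in TAK-931-1 and TAK-931-2. Its treated values were close to each other and above vehicle, with a log2 fold change of 0.34 (SE 0.2, 95% interval −0.20 to 0.88). Ifih1 (MDA5, chromosome 2, 62595793 to 62646255) gave 70 and 58 counts under vehicle, 672 in TAK-931-1 and 260 in TAK-931-2, or 4.15, 3.48, 35.4 and 15.2 CPM. Both treated allografts were well above vehicle, at 9.28-fold and 3.98-fold the vehicle mean. The log2 fold change was 2.73 (SE 0.56, unadjusted p 0.00678 and adjusted p 0.275 by edgeR) and became 1.99 without TAK-931-1. Per exon length, the ratio of Ifih1 to Ddx58 within a library was 0.0451 and 0.0415 under vehicle, against 0.328 and 0.133 in TAK-931-1 and TAK-931-2.

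Ifih1 and Ddx58 were also the only 2 of the members searched with a promoter match to the core of the interferon-stimulated response element. The windows searched, from RefSeq on GRCm38.p6, run from 250 bases before to 50 after a gene start. They covered 9 of the 10 members (10 windows, since Trex1 has 2), and Tmem173 was left out of the search. The letters searched were GAAA, any 2 bases and GAAA again, on both strands, found in 3.43% of all 32817 windows, and the gamma-activated site TTCNNNGAA, found in 8.29% of windows and in no member. A match describes these letters and not a bound site. The lack of a match in a window does not show that a gene has no such element. The windows of Ifih1 and Ddx58 are shown because they share a match while the fold changes of the genes differ, and that of Irf7 because it had the highest level in treated allografts and no match; capitals mark the match.
Ifih1, chr2:62646206-62646505, minus strand: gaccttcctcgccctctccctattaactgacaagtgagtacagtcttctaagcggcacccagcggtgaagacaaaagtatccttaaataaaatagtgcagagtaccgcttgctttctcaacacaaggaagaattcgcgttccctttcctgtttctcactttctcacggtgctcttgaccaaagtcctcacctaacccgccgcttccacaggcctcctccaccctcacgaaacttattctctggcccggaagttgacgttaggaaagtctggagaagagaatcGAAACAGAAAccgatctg
Ddx58, chr4:40239776-40240075, minus strand: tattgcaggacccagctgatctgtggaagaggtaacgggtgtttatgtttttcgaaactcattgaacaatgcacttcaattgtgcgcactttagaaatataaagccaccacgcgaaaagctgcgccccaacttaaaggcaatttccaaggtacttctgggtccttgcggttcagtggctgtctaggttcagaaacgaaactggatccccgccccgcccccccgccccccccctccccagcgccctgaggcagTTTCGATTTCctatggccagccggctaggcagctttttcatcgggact
Irf7, chr7:141266375-141266674, minus strand: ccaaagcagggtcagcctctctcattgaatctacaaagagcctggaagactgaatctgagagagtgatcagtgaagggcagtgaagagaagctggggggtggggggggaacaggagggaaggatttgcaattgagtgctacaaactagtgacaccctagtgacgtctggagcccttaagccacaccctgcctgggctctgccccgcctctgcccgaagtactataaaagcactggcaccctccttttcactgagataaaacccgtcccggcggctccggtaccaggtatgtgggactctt
The match in Ifih1 is on the strand of the gene, from base 33 to base 42 after the start. That in Ddx58 is on the opposite strand, from base 3 to base 12.

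MAVS, the adaptor of RIG-I and MDA5, and TBK1, the kinase that STING and MAVS share, overlapped between the groups. Mavs (chromosome 2, 131234063 to 131248024) had 35.6 and 28.1 CPM in vehicle-treated allografts, 42.9 and 34.6 CPM in TAK-931-1 and TAK-931-2, so the groups overlapped. Its log2 fold change was 0.28 (SE 0.26, 95% interval −0.42 to 0.99). Tbk1 (chromosome 10, 121546456 to 121586794) had 58.8 and 60.8 CPM in vehicle-treated allografts, 87 and 59.7 CPM in TAK-931-1 and TAK-931-2. Only TAK-931-1 lay above vehicle, and the log2 fold change of 0.29 (SE 0.27, 95% interval −0.43 to 1.02) became −0.01 without that library.

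The 2 transcription factors at the end of the pathway differed from each other. Irf3 (chromosome 7, 44997648 to 45002848) had 37 and 50.4 CPM in Vehicle-1 and Vehicle-2, 59.5 and 35.7 CPM in TAK-931-1 and TAK-931-2. The treated allografts lay on either side of the vehicle-treated ones, and the log2 fold change of 0.12 (SE 0.35, 95% interval −0.83 to 1.08) became −0.29 without TAK-931-1 and −0.08 without Vehicle-1. Irf7 (chromosome 7, 141263183 to 141266424) gave 1054 and 864 counts under vehicle, 10804 in TAK-931-1 and 2662 in TAK-931-2, or 62.5, 51.8, 569 and 155 CPM. Both treated allografts exceeded vehicle, at 9.96-fold and 2.72-fold its mean, and they differed 3.66-fold from each other. The means were 57.1 ± 7.57 and 362 ± 293 CPM (SD, n = 2), and the fitted log2 fold change was 2.66 (SE 0.7, unadjusted p 0.0166 and adjusted p 0.275 by edgeR). It became 1.44 without TAK-931-1 and 3.29 without TAK-931-2. Per exon length, Irf7 was 1.99 and 1.21 times the level of Irf3 in the vehicle-treated libraries, 11.3 times in TAK-931-1 and 5.12 times in TAK-931-2.

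Levels were compared between the genes as RPKM, which are these CPM per kilobase of exon. In vehicle-treated allografts Tmem173 was highest, at 58.5 ± 5.47 RPKM (SD, n = 2), followed by Irf7 at 30.7 ± 4.07 and Aim2 at 24.2 ± 1.09. Irf3 (20 ± 4.31) and Tbk1 (19.7 ± 0.484) could not be told apart, nor could Trex1 (16.1 ± 0.234) and Ddx58 (15.9 ± 1.05), whose ranges overlapped. Mavs followed at 9.99 ± 1.66. Far below lay Ifih1 at 0.691 ± 0.0864 and Mb21d1 at 0.339 ± 0.028 RPKM, so the least abundant members were a DNA sensor and an RNA sensor. In TAK-931-treated allografts Irf7 came first in both libraries, at 306 and 83.5 RPKM. Trex1 moved from sixth place by mean level to the places next to Irf7 and Tmem173, at 84 and 57.8 RPKM. Ifih1 (6.41 and 2.75) and Mb21d1 (4.36 and 1.45) remained in the last 2 places in every library.

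**Figure D2:**
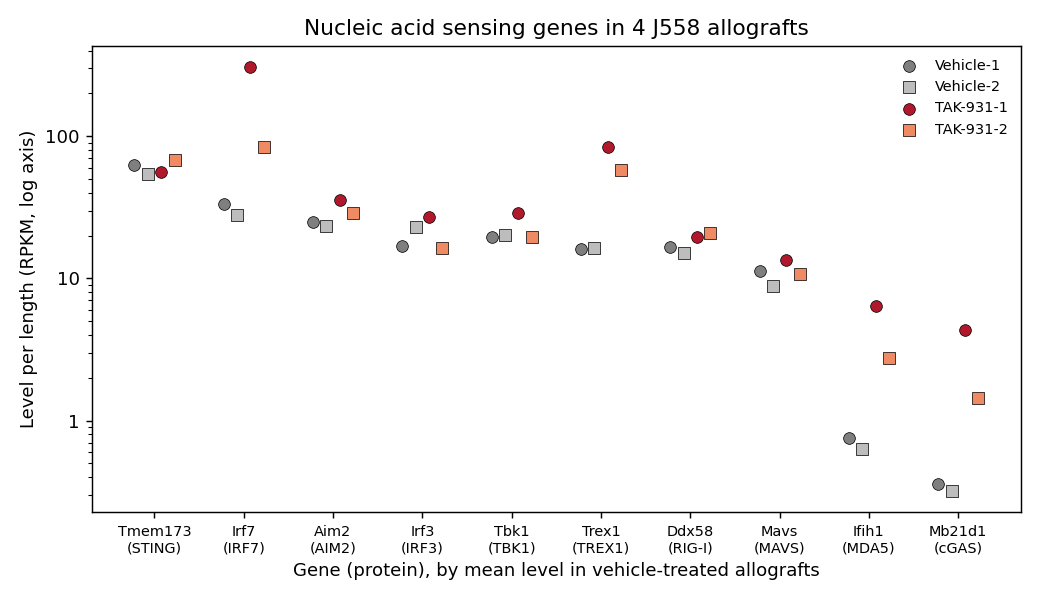
Level per exon length (RPKM, log axis) of the 10 sensing genes (x axis, ordered by vehicle mean) in each of the 4 libraries. Irf7 reached 306 and 83.5 RPKM in the treated libraries, and Mb21d1 and Ifih1 stayed lowest in all 4.

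The treated allografts differed from each other in the size of these differences and in the summed RNA level of host cell markers. In bulk RNA, fewer cells of a type and less RNA per cell cannot be told apart. TAK-931-1 exceeded TAK-931-2 by 3.66-fold in Irf7, 3-fold in Mb21d1, 2.33-fold in Ifih1 and 1.45-fold in Trex1, and by 4.96-fold in Ptprc, which encodes the leukocyte antigen CD45. Ptprc had 36.6 and 20.8 CPM in vehicle-treated allografts, 633 and 128 CPM in TAK-931-1 and TAK-931-2, or 22-fold and 4.44-fold the vehicle mean. The macrophage markers were above both vehicle-treated libraries in both treated ones for 6 of 6 genes (30% of all genes), and their summed level was 305 and 277 CPM in vehicle, 4601 and 767 CPM in TAK-931-1 and TAK-931-2. The T cell markers were so for 6 of 6 genes (16.2 to 23.7 CPM in vehicle, 912 and 63.8 CPM in the treated libraries), the NK cell markers for 4 of 4 (1.86 to 11.1, then 264 and 45.3) and the conventional dendritic cell markers for 4 of 5 (20.7 to 25.3, then 280 and 55.3). Some of these sums rested on genes that other leukocytes share. Prf1 and Eomes, also genes of cytotoxic T cells, gave 180 and 69.5 CPM of the NK cell sum in TAK-931-1, while Ncr1 was at 11.3 and 8.69 CPM in the treated libraries and Klrb1c at 0 in Vehicle-2. Itgax, also expressed by macrophages, gave 238 CPM of the dendritic cell sum in TAK-931-1, while Flt3 was 1.04-fold and 0.776-fold the vehicle mean.

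Plasmacytoid dendritic cells are known for high constitutive Irf7, and their markers were examined for that reason. The summed level of their 5 markers was 250 and 240 CPM in vehicle-treated allografts, 488 and 274 CPM in TAK-931-1 and TAK-931-2, most of it from Bst2 and Tcf4, which other cells also express. Siglech, the most restricted of them, had 1.66 and 0.959 CPM in vehicle, 5.16 and 2.1 CPM in TAK-931-1 and TAK-931-2, and Ccr9 was at 0 in Vehicle-2. Of the 5 markers 4 were higher without overlap (30% of all genes) and Tcf4 was lower. The scarce Ccr9 was 12.4-fold and 4.78-fold the vehicle mean and Klk1 10.6-fold and 3.44-fold, against 1.99-fold and 1.12-fold for the sum. The summed level of the 6 markers of J558 or plasma cells was 8181 and 8712 CPM in vehicle, 4218 and 11199 CPM in TAK-931-1 and TAK-931-2. Most of that sum was Jchain, at 3136 and 8124 CPM in TAK-931-1 and TAK-931-2. Sdc1 (0.348-fold and 0.847-fold the vehicle mean) and Xbp1 (0.356-fold and 0.918-fold) were below vehicle in both treated libraries. Trap1a, a marker of J558 cells, stood at 0.32-fold and 1.11-fold vehicle in TAK-931-1 and TAK-931-2. In the latter the 4 higher members were 2.72-fold to 4.29-fold the vehicle mean and Ptprc was 4.44-fold. The macrophage, T cell, NK cell and conventional dendritic cell sums there were 2.64-fold, 3.2-fold, 6.97-fold and 2.41-fold. The part of these markers in the values of the members was not tested.

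The other marker lists also differed between the treated allografts. Fibroblast markers summed to 1352 and 1502 CPM in vehicle, 11135 and 3823 CPM in TAK-931-1 and TAK-931-2, with 3 of 4 genes above vehicle in both (30% of all genes). The endothelial list was 3.37-fold and 1.02-fold the vehicle mean (2 of 3 genes) and the neutrophil list 19.5-fold and 2.33-fold (1 of 3, near the 30% of all genes). The B cell list was 0.404-fold and 0.971-fold, with 0 of 2 tested genes higher. Of these, Cd79b was lower without overlap (0.394-fold and 0.847-fold, 32.7% of all genes) and Ms4a1 overlapped. Csf3r gave nearly all of the neutrophil sum (115 and 15.1 CPM in the treated libraries), while in TAK-931-2 S100a9 was 0.115-fold the vehicle mean and S100a8 had 0 counts. Skeletal muscle markers were 6.33-fold and 0.0132-fold the vehicle mean, and adipocyte markers 5.06-fold and 0.507-fold, with Plin1 at 0 in Vehicle-1.

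**Figure D3:**
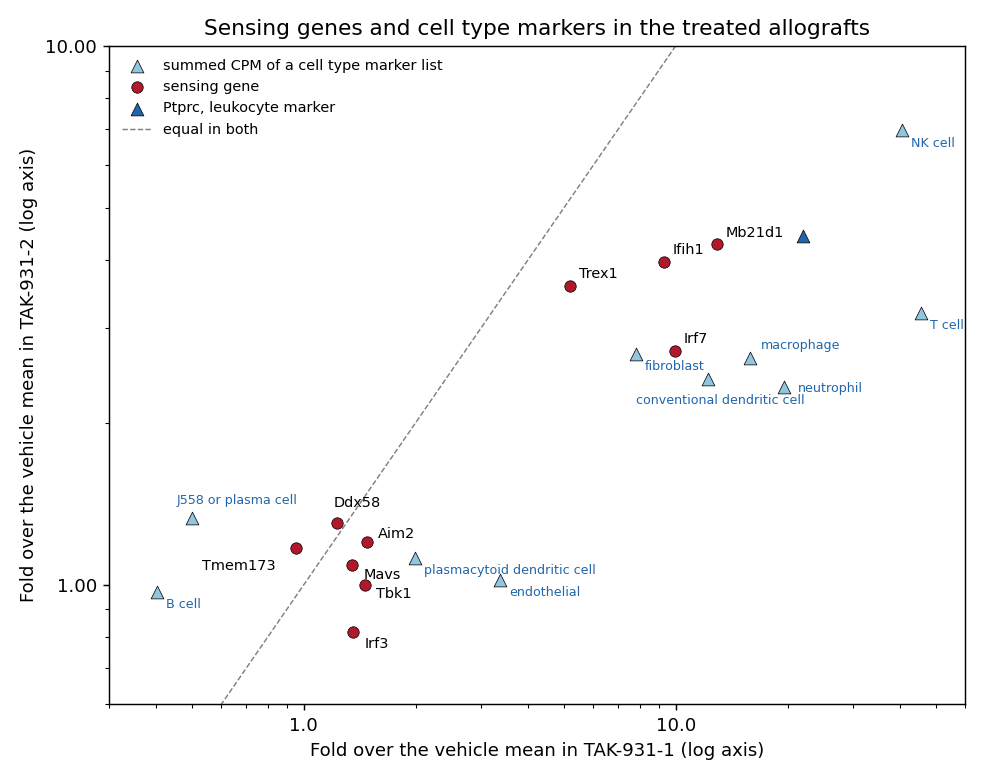
Fold over the vehicle mean in TAK-931-1 (x axis) and in TAK-931-2 (y axis), both on log axes, for each sensing gene (circles), for the summed CPM of cell type marker lists and for Ptprc (triangles); skeletal muscle and adipocyte lists are not drawn. Trex1, at 5.21-fold and 3.59-fold, lies nearest to the line of equal fold among the 4 higher genes, and Ptprc lies at 22-fold and 4.44-fold.

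TAK-931-1 alone was above both vehicle-treated libraries in 9 members (46.1% of all genes) and TAK-931-2 alone in 7 (42.3% of all genes). The 6 members without overlap between the groups are in both counts by construction. DESeq2, run on the same counts, gave an adjusted p under 0.05 to 4 members, all higher (9.21% of all genes were called higher and 10.3% in either direction). The called members were Trex1 (adjusted p 1.29e-05 by DESeq2), Ifih1 (0.000374), Irf7 (0.000934) and Mb21d1 (0.0017). With limma-voom no member passed an adjusted p of 0.05 (0% of all genes) and 4 had an unadjusted p under 0.05 (14.3% of all genes).

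The number of members past a threshold in edgeR depended on which library was left out. Without Vehicle-1 or Vehicle-2, 4 members had an unadjusted p under 0.05 (6.86% and 6.98% of all genes) and none an adjusted p under 0.05 (0% of all genes). Without TAK-931-1, 6 members had an unadjusted p under 0.05 (40.8% of all genes) and 5 an adjusted p under 0.05 (28.7% of all genes). Without TAK-931-2 the numbers were 7 (63.1% of all genes) and 6 (58.1% of all genes). In the last 2 fits 1 treated library was set against the vehicle pair, which alone gave the spread. The members called in both were Mb21d1, Ifih1, Irf7 and Trex1.

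The genes around the pathway were taken from 8 lists of 61 genes in all, of which 60 were in the tables and 58 passed the filter. None passed an adjusted p of 0.05 in edgeR, and 28 had an unadjusted p under 0.05, all of them higher (11.6% of all genes were called higher and 18.1% in either direction). The groups did not overlap in 41 genes that were higher and 3 that were lower in TAK-931-treated allografts, where 30% and 32.7% of all genes did so. DESeq2 gave 26 of the 58 an adjusted p under 0.05 (10.3% of all genes), edgeR with the replicate number as a block gave 8 (1.05% of all genes), and limma-voom gave 0, with 22 at an unadjusted p under 0.05 (14.3% of all genes). Their median log2 fold change was 1.16.

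Among the further DNA sensors and inflammasome genes, 6 of 7 were higher without overlap (30% of all genes) and 4 had an unadjusted p under 0.05, all higher (11.6% of all genes). Nlrp3, the sensor of a different inflammasome, had 1.54 and 0.839 CPM in vehicle, 15.2 and 5.6 CPM in TAK-931-1 and TAK-931-2, with a log2 fold change of 3.12 (SE 0.78). Ifi203 and Ifi204, of the interferon-inducible p200 family to which Aim2 belongs, had log2 fold changes of 2.90 and 2.83. Ifi203 was at 18.4 and 12.8 CPM in vehicle and 177 and 56.1 CPM in the treated libraries, and Ifi204 at 18.3 and 6.23, then 134 and 40.3 CPM. Without TAK-931-1 the log2 fold changes were 2.22 for Nlrp3, 1.84 for Ifi203 and 1.71 for Ifi204, and without Vehicle-1 that of Ifi204 was 3.79. Without TAK-931-2 that of Ifi204 was 3.42, and without Vehicle-2 it was 2.22. The adaptor Pycard, which links AIM2 to caspase-1, overlapped between the groups (0.11), whereas Casp1 was 5.19-fold and 1.83-fold the vehicle mean.

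Of the RNA sensors, 5 of 6 were higher without overlap (30% of all genes) and 3 had an unadjusted p under 0.05, all higher (11.6%). Dhx58 (LGP2), the third RIG-I-like receptor, had 7.71 and 5.27 CPM in vehicle, 51.1 and 16.7 CPM in TAK-931-1 and TAK-931-2. The fitted log2 fold change was 2.38 (SE 0.66), between those of Ddx58 and Ifih1. Tlr3, the endosomal receptor for double-stranded RNA, had 2.64 (SE 0.89), and Eif2ak2 (PKR) had 1.30 (SE 0.32). Without TAK-931-1 the values of Dhx58 and Tlr3 were 1.36 and 1.35, and without TAK-931-2 that of Tlr3 was 3.28.

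Genes of nucleic acid clearance other than Trex1 were mixed. Of 9, 4 were higher without overlap (30% of all genes), 2 lower (32.7%) and 3 overlapped. An unadjusted p under 0.05 was reached by 1, which was higher (11.6%), so these counts were near those of all genes. Samhd1, which hydrolyses deoxynucleotides, had 201 and 174 CPM in vehicle, 442 and 268 CPM in TAK-931-1 and TAK-931-2 (log2 fold change 0.92, SE 0.34). Dnase1l3, a secreted nuclease, had 2.17 (SE 0.87), with vehicle values of 22.3 and 4.44 CPM that differed 5.03-fold; it was 3.75 without Vehicle-1 and 1.40 without Vehicle-2. Enpp1, which degrades the cyclic dinucleotide made by cGAS, was lower, at 290 and 280 CPM in vehicle, 105 and 218 CPM in TAK-931-1 and TAK-931-2 (log2 fold change −0.82, SE 0.42, and −1.46 without TAK-931-2). The 3 subunits of RNase H2, encoded by Rnaseh2a, Rnaseh2b and Rnaseh2c, had log2 fold changes of −0.28, −0.03 and 0.02.

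Among kinases and adaptors, 5 of 9 were higher without overlap (30% of all genes) and 3 had an unadjusted p under 0.05, all higher (11.6%). Ikbke, the relative of Tbk1, had 13.6 and 11.6 CPM in vehicle, 123 and 39.4 CPM in TAK-931-1 and TAK-931-2 (log2 fold change 2.68, SE 0.62), against 0.29 for Tbk1. Tbkbp1, which encodes a TBK1-binding protein, had 2.70 (SE 0.81) and Optn 2.44 (SE 0.88), and TAK-931-1 exceeded TAK-931-2 in them by 4.17-fold and 3.79-fold. Without TAK-931-1 the values were 1.64 for Ikbke, 1.32 for Tbkbp1 and 1.18 for Optn, and without TAK-931-2 they were 3.26, 3.36 and 3.08. The adaptors Traf3, Tank and Azi2 overlapped between the groups. Among negative regulators, 5 of 7 were higher without overlap and 4 had an unadjusted p under 0.05, all higher, beside the same shares of all genes. Nlrc3 had 3.40 (SE 1.17), on 11 counts in each vehicle-treated library, 234 in TAK-931-1 and 28 in TAK-931-2. Usp18, which removes ISG15 from proteins, had 2.84 (SE 0.69) and Rnf125 2.01 (SE 0.97). Rnf125 was at 1.19 and 0.959 CPM in vehicle and at 7.22 and 1.46 CPM in the treated libraries, so the treated value nearest vehicle was close to it. Without TAK-931-1 the values were 1.30 for Nlrc3, 2.19 for Usp18 and 0.44 for Rnf125. Without TAK-931-2 they were 4.20 for Nlrc3 and 2.72 for Rnf125, and without Vehicle-1 that of Usp18 was 3.58.

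The other members of the IRF family were not alike. Of 7, 3 were higher without overlap (30% of all genes), 1 lower (32.7%) and 3 overlapped, so these counts were near those of all genes. An unadjusted p under 0.05 was reached by 2, both higher (11.6%). Irf8, a factor of myeloid cells, had 34.6 and 12.3 CPM in vehicle, 301 and 83.3 CPM in TAK-931-1 and TAK-931-2 (log2 fold change 3.03, SE 0.87), and Irf1 had 1.72 (SE 0.39). Irf8 was 1.82 without TAK-931-1, 3.66 without TAK-931-2, 3.95 without Vehicle-1 and 2.44 without Vehicle-2. Irf4, a factor that plasma cells need, went apart in the treated allografts, with 737 and 762 CPM in vehicle, 298 and 1671 CPM in TAK-931-1 and TAK-931-2. Irf9 overlapped between the groups (−0.28).

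Downstream of the IRF factors, Ifnb1 and Ifna4, the 2 type I interferon genes listed, were not detectable in treated allografts at this depth. Vehicle-1 alone held Ifnb1 counts, 6 of them, and Ifna4 had 0 counts in all 4 libraries; a count of 0 allows up to 3 read pairs (6 counts), or 0.306 to 0.364 CPM before TMM scaling, which covers counting error only. The Ifnb1 counts of Vehicle-1 were thus at this limit. The 4 receptor and STAT genes tested were higher without overlap (30% of all genes), and 2 had an unadjusted p under 0.05, both higher (11.6%). Stat2 had 29.2 and 29.6 CPM in vehicle, 182 and 82.6 CPM in TAK-931-1 and TAK-931-2 (log2 fold change 2.17, SE 0.45), and Ifnar2 had 0.76 (SE 0.4). Without TAK-931-1 they were 1.49 and 0.17.

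All 9 genes of the IRF and interferon output list were higher without overlap (30% of all genes) and had an unadjusted p under 0.05 (11.6% of all genes were called higher). Their median log2 fold change was 3.54, and 2 of them, Cxcl10 and Ccl5, were followed by the study itself. Ifit2 had 6.76 and 2.76 CPM in vehicle, 112 and 66.7 CPM in TAK-931-1 and TAK-931-2, with a log2 fold change of 4.23 (SE 0.6, unadjusted p 0.00159 and adjusted p 0.275 by edgeR). The treated allografts were 23.5-fold and 14-fold the vehicle mean in Ifit2, 18.8-fold and 11.9-fold in Ifit1 and 23.9-fold and 8.75-fold in Rsad2. Ccl5, at 10.3 and 2.52 CPM in vehicle and 248 and 50.1 CPM in the treated libraries, had a log2 fold change of 4.54 (SE 1.17), which was 2.96 without TAK-931-1, 5.25 without TAK-931-2, 5.87 without Vehicle-1 and 3.82 without Vehicle-2. Rsad2 (4.02) was 3.12 without TAK-931-1, and Ifit2 was 5.01 without Vehicle-1. Across the 9 genes TAK-931-1 exceeded TAK-931-2 by 1.32-fold (Cxcl10) to 4.96-fold (Ccl5).

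**Figure D4:**
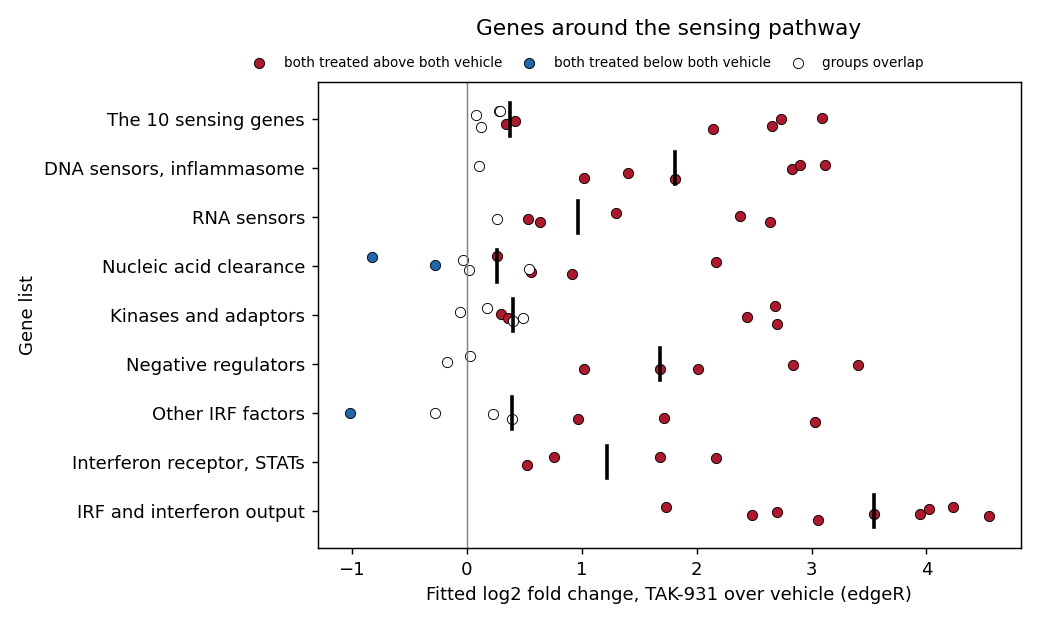
Fitted log2 fold change (x axis, edgeR, n = 2 per group) of the 10 sensing genes and of the 58 tested genes of 8 lists around the pathway (y axis). Each point is a gene, coloured by whether the groups overlapped, and black bars are medians, from 0.26 for nucleic acid clearance to 3.54 for IRF and interferon output.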

How the data were processed

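RNA was measured in whole J558 allografts by bulk sequencing, 1 library per allograft, grouped by the labels. The authors deposited raw counts of reads per gene and each gene's summed exon length. The submitters' processing notes name STAR 2.6.1c, featureCounts and mm10; strand use is not given in the sources used here, so antisense reads cannot be told apart. Odd values made up 17.9% to 23.9% of the counts between 1 and 20, so both mates of a pair appear to be counted, and counting error is larger than counts imply. Of 24421 symbols, 23084 matched RefSeq GRCm38.p6 by name and chromosome, and 99.9% of these overlapped it in position. No member shared an exon base with another gene of the tables.

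Genes were kept by filterByExpr (minimum count 10) of edgeR 4.0.16 in R 4.3.3, leaving 13669, scaled by TMM and compared by robust quasi-likelihood tests, two-sided, with Benjamini-Hochberg adjustment over all genes at 0.05. The fitting code was run on simulated counts, a check of the code and not of the power in these data. DESeq2 1.42.0 and limma-voom (limma 3.58.1) were alternatives, with other scalings and filters, a replicate block, halved counts, a prior count of 0.5, no robust estimation and each library left out. Members and lists were chosen with earlier results of these data known, and p-values were adjusted over all genes only. Named were all members, and of each list any gene called or the 3 with the largest log2 fold change; Pycard, Casp1, RNase H2, the adaptors, Irf4, Irf9, Ifit1, Cxcl10, Ifnb1 and Ifna4 were chosen after their values were seen. The series describes the 2 allografts of each group as independent and names no batch. Some genes of the lists are not reported here by name.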

Additional observations from a re-analysis of the deposited data

How the results depend on the processing

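No gene and no member passed an adjusted p of 0.05 with edgeR under either other scaling, either other filter, halved counts or no robust estimation, nor with limma-voom. DESeq2 called 1411 genes and 4 members. With the replicate block 144 genes and 0 members were called; deviations of same-numbered libraries correlated at 0.0041, and nothing in the labels pairs them. With 1 library left out, between 0 and 8424 genes, between 0 and 6 members at the adjusted threshold and between 4 and 7 at an unadjusted p under 0.05 were called. Without TAK-931-1, 3996 genes (28.7%) and 5 members passed (Mb21d1, Ddx58, Ifih1, Irf7 and Trex1). Without TAK-931-2, 8424 genes (58.1%) and 6 members passed (Mb21d1, Ifih1, Tbk1, Irf7, Trex1 and Aim2). In these 2 fits the spread came from the vehicle pair alone, and the lone treated library was assumed to vary like it. The fold changes of 3 members turned sign in such fits: Irf3 (lowest −0.29, highest 0.42), Tmem173 (−0.10 to 0.22) and Tbk1 (−0.01 to 0.52). Those of Mb21d1, Ifih1, Irf7 and Trex1 were above 0 in every fit run. Members and pathway genes higher without overlap numbered 6 and 41 (30% of all genes). They numbered 7 and 44 with median-of-ratios scaling and 8 and 44 with library size only. No share of all genes was computed for these other scalings. Without TAK-931-1 they numbered 7 and 47 (42.3% of all genes), and without TAK-931-2 9 and 48 (46.1%). This check was chosen after seeing the data. The cause of these changes was not tested. Among the 10 members depth limits Mb21d1 most, at 22 and 25 vehicle counts. Some pathway genes had fewer, such as Nlrc3 with 11 in each vehicle-treated library.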
